A study of Drosophila melanogaster with 34 samples.

Results

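The 5 rRNA positions 18S Am425, 18S Am441, 18S Gm475, 18S Am549 and 28S Cm2744 were guided 2′-O-methylation sites of Drosophila melanogaster whose methylation score was low in control S2R+ cells. They were 5 of 72 positions measured by RiboMeth-seq. In this method alkali breaks RNA, a methyl group on the 2′ oxygen protects the adjoining bond, and a methylated position therefore collects few read ends. The score, used as the authors deposited it, ends at 1, which stands for strong protection. The sites were chosen from these scores: each has a listed guide RNA, and its mean in LacZ cells lay over 0.1 below the equal mean of 3 control groups of heads. In all, 6 guided sites met that difference. The sixth, 28S Gm3324, with 0.681 in LacZ cells and 0.817 in heads, is not in the list and is not counted here. The contrast of cells with heads is therefore a description without a test.

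The 34 libraries fell into 9 groups. In 4 libraries, S2R+ cells had been treated with double-stranded RNA targeting Fibrillarin (Fib), and in 4 with one targeting bacterial lacZ. Heads came from female flies kept on 5% sucrose with 2.5 nM paraquat (3) or on 5% sucrose alone (3) for 8 days, in darkness at 18, 25 or 29 °C for 8 days (4 each), or for 10 days on low-nutrient food, labelled as 0.25x in sugar and as no a.a. (4), or on 1x home-made food (4). The sources used here state neither strain, age nor the amount and duration of the double-stranded RNA. Sample titles of the paraquat and sucrose-alone groups carry the mark d17, beside a treatment of 8 days. What that mark counts was not checked. Nothing in them marks replicates as separate cultures or fly pools, so p-values measure the spread between these libraries, which may be technical. A head is a mixture of tissues. The labels call the S2R+ cells mesenchymal stem cells, whereas the line is known as an embryonic, hemocyte-like one. The tables hold rRNA positions only, so neither cell markers nor the Fib transcript could be checked.

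Library numbers in the tables formed 4 unbroken runs. Replicates 1 and 2 of both cell groups made run A, replicates 3 and 4 run B, the paraquat experiment run C, and the temperature and food experiments run D. Cells and heads never shared a run, so cell source and run cannot be told apart. Median coverage over the 72 sites ranged from 28370.5 to 104241.5 reads between libraries.

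Box C/D small nucleolar RNAs (snoRNAs) pair with rRNA, and the paired nucleotide at the fifth position from the box D motif is methylated by Fibrillarin, the catalytic protein of the particle. Many rRNA sites are methylated in nearly every ribosome, while some are methylated in part of them. In human cells, such partly methylated sites differ between cell types.

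All 4 of the 18S sites lay within 124 bases. From 5′ to 3′, the steps between them were 16, 34 and 74 bases. 28S Cm2744, which carries the name Cm2743 in a second naming of the tables, stood alone in 28S rRNA. The annotation lists 1 guide each for 18S Am425 and 18S Am441, and 2 each for 18S Gm475, 18S Am549 and 28S Cm2744, which makes 8 guide identifiers. One of them, FBgn0263851, is listed for 18S Gm475 and also for 18S Am469, 6 bases upstream, which is not one of the 5. No other guide of these sites is listed for a further position. The RefSeq gene table of Release 6 names a snoRNA for one of the positions, snoRNA:Me18S-A425, at chr3R:11222841-11222924. That table does not hold the listed identifier, FBgn0086056, so the link between them was not checked.

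Coverage differed between the sites. It was 5564 to 17627 reads per library at 18S Am425 and 6090 to 21397 at 18S Am441, against 31665 to 139715 at 18S Gm475, 30832 to 125775 at 18S Am549 and 17014 to 76306 at 28S Cm2744. The coverage of a position is not the depth of the library. Read ends are given below per 10000 covering reads, a quantity that, unlike the score, is not set against neighbouring positions and is not independent of the score.

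In LacZ cells 18S Am441 was the least protected of the 5. Its 4 LacZ libraries scored 0.528, 0.471, 0.465 and 0.491, and the 26 head libraries ran from 0.922 to 0.973 with a median of 0.951. No LacZ library came near a head library. In bulk RNA, ribosomes methylated in some cells only and ribosomes methylated in part in every cell cannot be told apart.

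18S Gm475 scored 0.731, 0.754, 0.257 and 0.639 in LacZ cells, and 0.819 to 0.977 in heads with a median of 0.959. The LacZ libraries lay below every head library but were far apart among themselves; their SD of 0.231 was the largest of the 72 sites. 28S Cm2744 scored 0.595, 0.647, 0.751 and 0.701 in LacZ cells, and 0.966 to 0.990 in heads (median 0.984). It differed from the 18S sites in that run B was the higher one in LacZ cells.

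18S Am425 scored 0.768, 0.822, 0.720 and 0.669 in LacZ cells, and 0.833 to 0.947 in heads (median 0.921). Here the nearest values of the 2 sources, 0.822 and 0.833, almost met. 18S Am549 scored 0.841, 0.841, 0.819 and 0.810 in LacZ cells, and 0.936 to 0.973 in heads (median 0.959). It was the most protected of the 5 in LacZ cells and had the smallest spread there, an SD of 0.0158.

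Against the equal mean of the 3 head control groups (11 libraries), the LacZ means were lower by 0.454 at 18S Am441, 0.360 at 18S Gm475, 0.312 at 28S Cm2744, 0.162 at 18S Am425 and 0.131 at 18S Am549. By limma 68.1% of all 72 sites were lower in LacZ cells at an adjusted p under 0.05 (called lower), and the median difference of all 72 was -0.0197. Just outside the threshold stood 28S Am2724, with 0.912 in LacZ cells and 0.988 in heads, and 18S Am1806, with 0.918 and 0.992. Within the list the smallest difference was that of 18S Am549, 0.828 against 0.959.

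**Figure D1:**
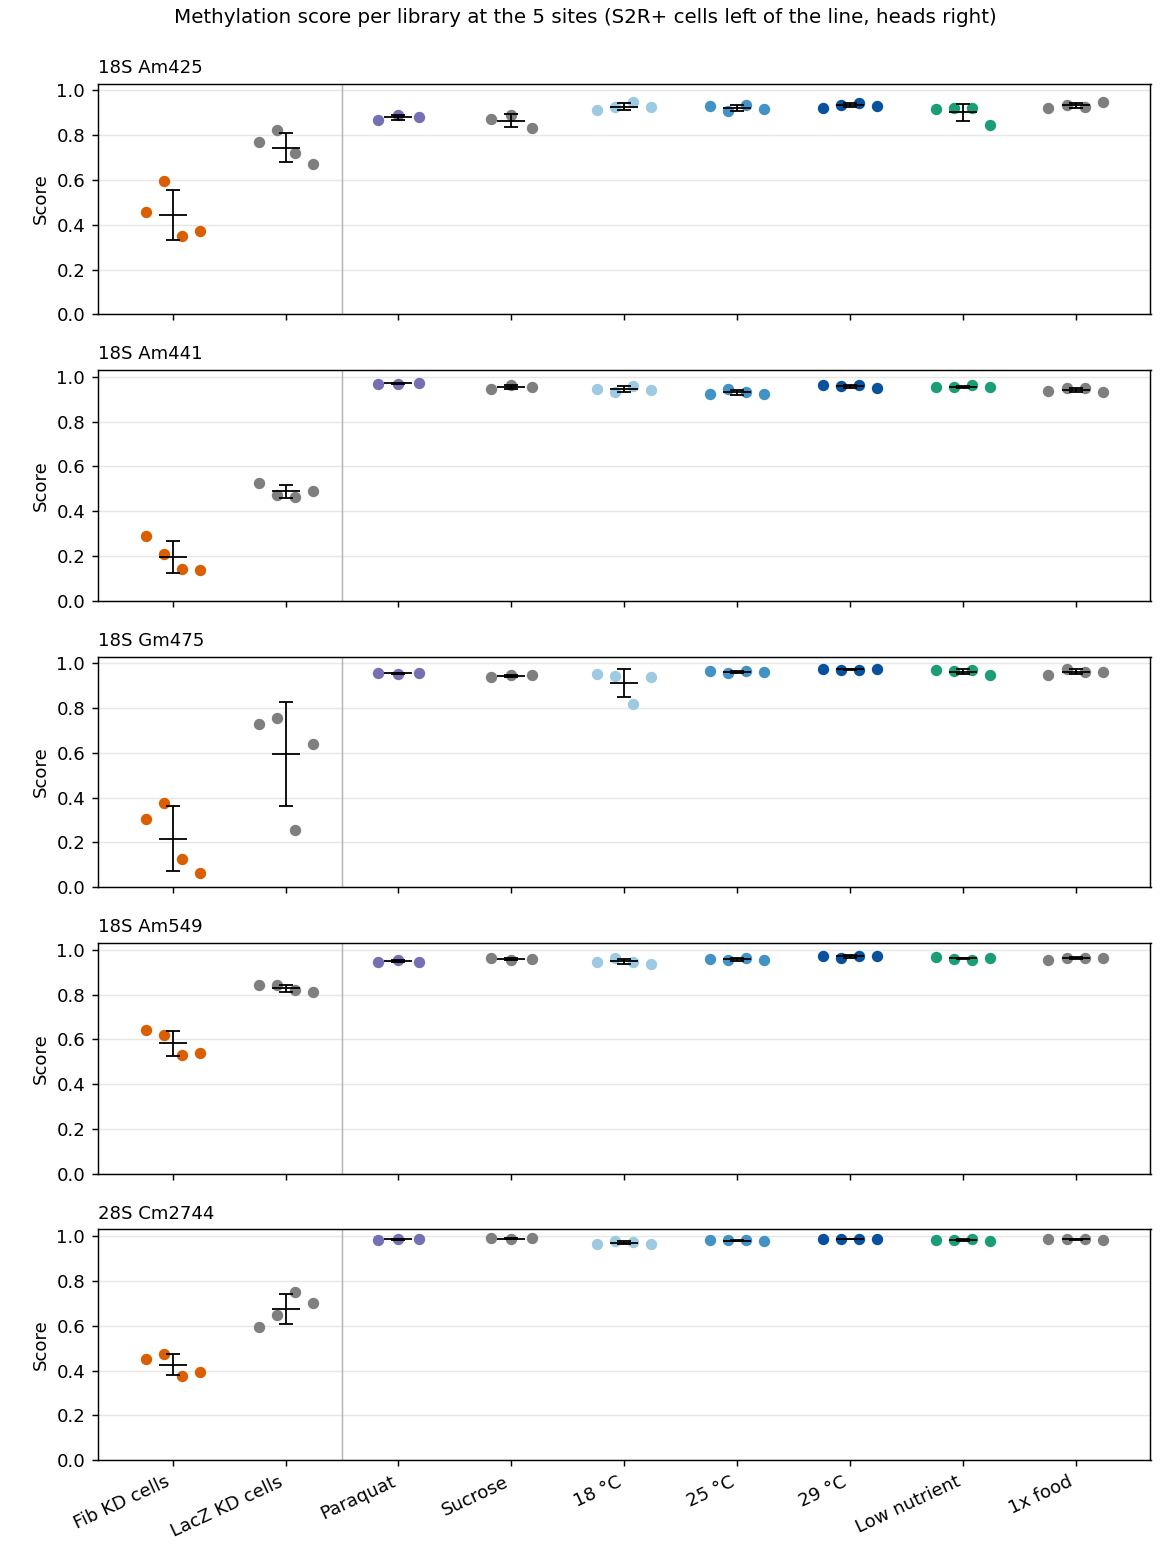
Methylation score (y axis, 0 to 1) at each of the 5 sites in every library, by group (x axis); points are libraries, and bars give the mean and SD. LacZ cells lie below every head library at all 5 sites, and the Fib libraries lie below every LacZ library except at 18S Gm475, where LacZ replicate 3 sits at 0.257.

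The shares of 5′ and 3′ ends differed between the sites. At 28S Cm2744 and 18S Am549 most ends in LacZ cells were 5′ ends, and 3′ ends made up 16.6% and 8.44% of the summed ends. At 18S Am425 and 18S Gm475 3′ ends prevailed, with 85.5% and 77.3%. At 18S Am441 the ends were mixed, 41.1% being 3′ ends. The order of the sites was the same in Fib cells, where the 3′ shares were 16.3% at 28S Cm2744, 6.56% at 18S Am549, 83.1% at 18S Am425, 66.7% at 18S Gm475 and 46.7% at 18S Am441.

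Ends per 10000 covering reads averaged 373 ± 59.8 at 18S Am441 in LacZ cells (SD, n = 4), against 47.2 ± 10.2 in the control heads (SD, n = 11). For 28S Cm2744 the means were 360.2 ± 56.4 in LacZ cells and 19.2 ± 4.77 in the control heads. For 18S Gm475 they were 233 ± 128 and 30.8 ± 6.35, for 18S Am425 235 ± 57.0 and 97.5 ± 25.2, and for 18S Am549 80.6 ± 3.96 and 18.2 ± 2.59, LacZ cells first. The order of the sites by ends was therefore not that by score: 28S Cm2744 carried nearly as many ends per read as 18S Am441 in LacZ cells at a score that was higher by more than the SD of either.

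At 18S Am425 both kinds of ends were more frequent in most LacZ libraries than in most heads, and the ranges overlapped. Its 5′ ends were 10.3 to 48.8 per 10000 covering reads in LacZ libraries and 0 to 20.4 in the heads, where 4 of the 26 libraries had none. Its 3′ ends were 144 to 233 in LacZ libraries and 54.5 to 188 in heads.

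**Figure D2:**
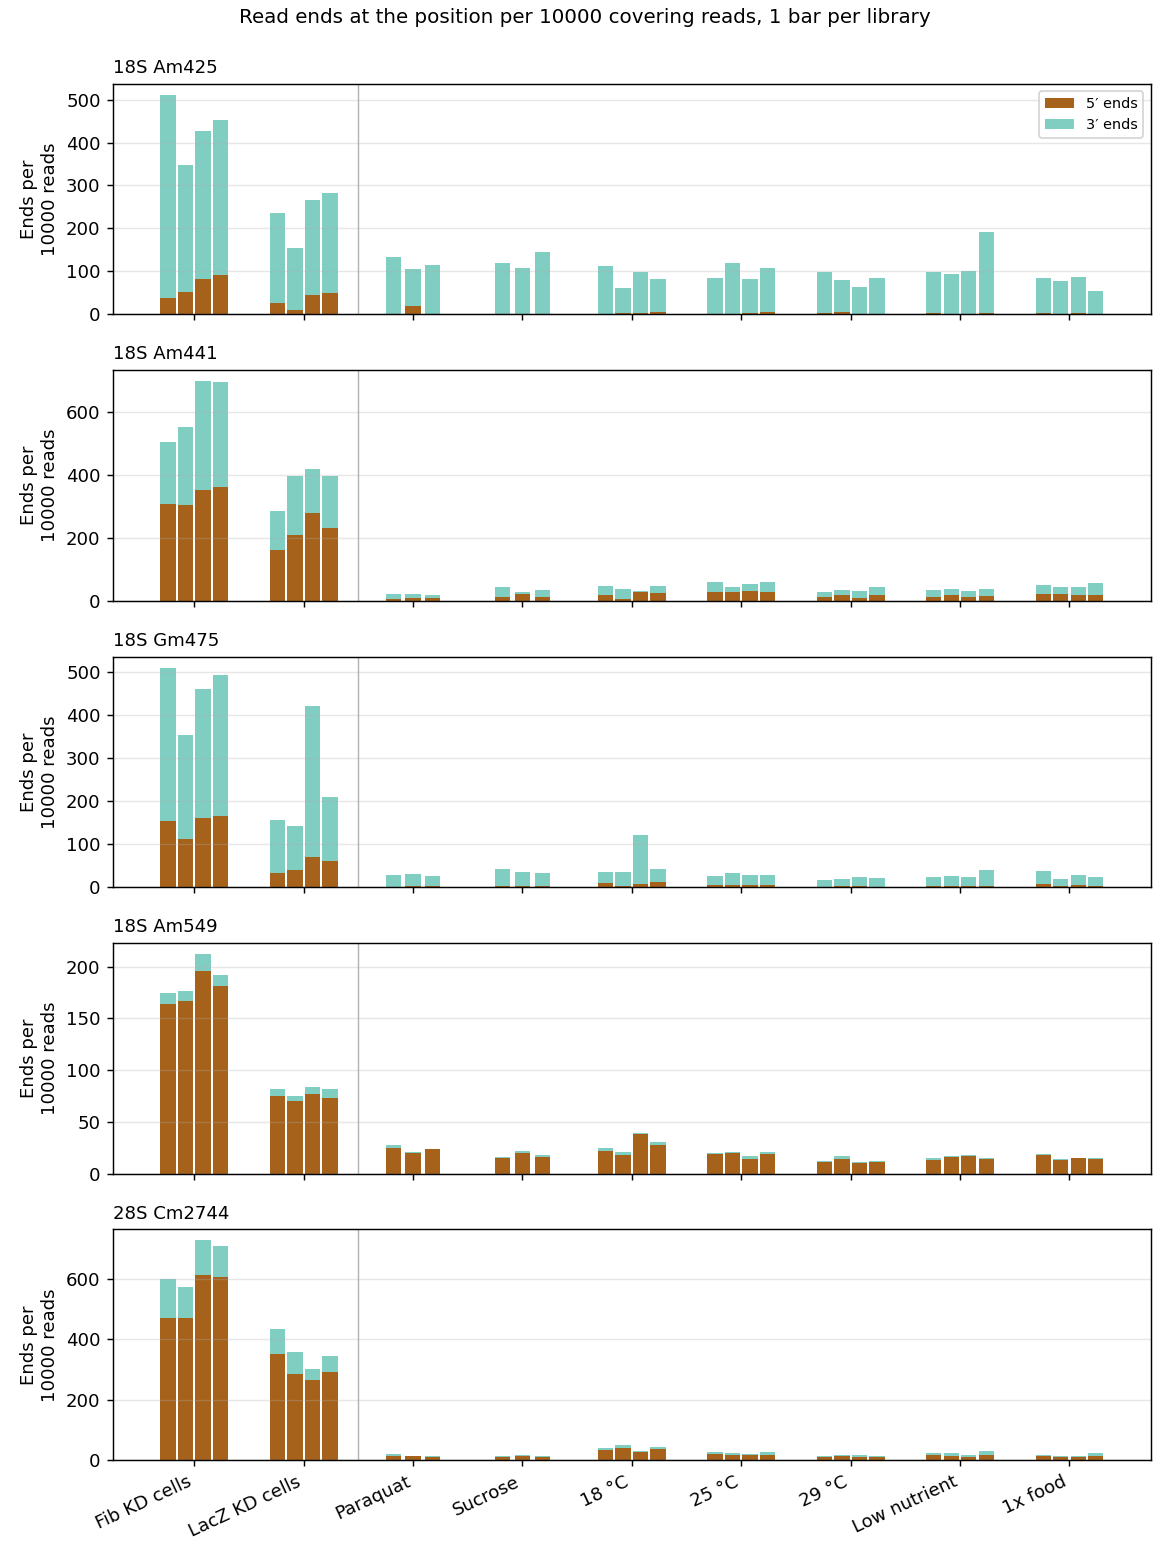
Read ends at each position per 10000 covering reads (y axis), 1 stacked bar per library with 5′ ends below and 3′ ends above, by group (x axis); the scale differs between sites. Ends at 18S Am549 and 28S Cm2744 are mainly 5′ ends and those at 18S Am425 and 18S Gm475 mainly 3′ ends, and single bars stand out at 18S Gm475 (LacZ replicate 3, 18 °C replicate 3) and 18S Am425 (low-nutrient replicate 4).

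Within 60 bases of one of the 5, the tables hold 10 further sites, 5 in each rRNA, and all 10 had a higher LacZ mean than any of the 5. 18S Cm419 is 6 bases upstream of 18S Am425 and scored 0.965 ± 0.00795 in LacZ cells (SD, n = 4) and 0.945 ± 0.0157 in the control heads (SD, n = 11). 18S Am469, which shares a listed guide with 18S Gm475, scored 0.838 ± 0.0150 and 0.816 ± 0.0201 in the same order. Both neighbours were thus higher in LacZ cells in these means, by 0.0195 and 0.0240 against the equal mean of the head groups. 18S Gm393, 18S Um[Psi]568 and 18S Um586 differed by -0.0530, -0.0251 and -0.0211.

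Near 28S Cm2744 the neighbours 28S Um[Psi]2692, 28S Am2704, 28S Cm2716, 28S Am2724 and 28S Gm2774 differed by -0.0107, -0.00489, -0.0230, -0.0766 and -0.0365. The lowest LacZ mean among these 5 was 0.912, at 28S Am2724, where 28S Cm2744 had 0.673. The 10 neighbours stand here by position, and the 5 sites by their low score, so the contrast between them is a description.

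**Figure D3:**
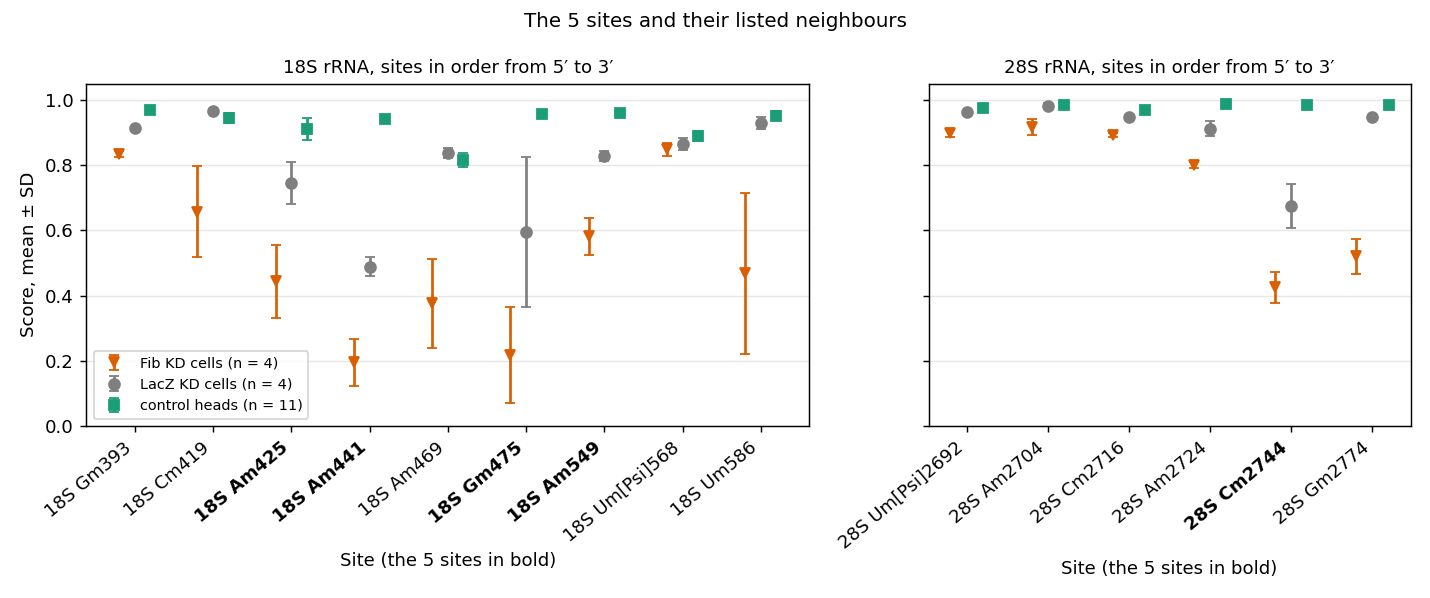
Score (y axis, mean ± SD) of Fib cells (n = 4), LacZ cells (n = 4) and control heads (n = 11) at the 5 sites and their 10 listed neighbours, in order along 18S rRNA (left) and 28S rRNA (right). LacZ means of the 5 sites lie between 0.489 and 0.828, and 18S Cm419 and 18S Am469, each 6 bases upstream of one of them, are higher in LacZ cells than in heads.

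Fibrillarin knockdown lowered all 5 sites. The comparison asks which positions depend on this methyltransferase, and it uses the LacZ libraries that also entered the choice of the sites. Of the 72 sites, 80.6% were called lower by limma at an adjusted p under 0.05, so 5 of 5 is close to that background. The size of the change was larger: the median difference was -0.294 for the 5, -0.169 for the 59 guided sites and -0.143 for all 72. In rank of fall the 5 stood between place 7 and place 19 of 72.

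18S Am441 scored 0.290, 0.210, 0.141 and 0.138 in Fib libraries, each under the lowest LacZ library of 0.465. Its mean was 0.195 in Fib cells and 0.489 in LacZ cells (difference -0.294, SE 0.0353, adjusted p = 0.000216, limma). 18S Gm475 scored 0.306, 0.375, 0.126 and 0.0635 in Fib libraries, with means of 0.217 in Fib and 0.595 in LacZ cells (difference -0.378, SE 0.124, adjusted p = 0.0216, limma). The standard error was the largest of the 5 at 18S Gm475. At 18S Gm475 the groups overlapped through LacZ replicate 3. Its call was lost without LacZ replicate 1, 2 or 4, without Fib replicate 3 or 4 and with centred scores, and it was kept in 10 of 16 alternatives (adjusted p from 6.89e-06 to 0.0871, limma).

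18S Am425 scored 0.458, 0.596, 0.348 and 0.371 in Fib libraries, with means of 0.443 in Fib and 0.745 in LacZ cells (difference -0.302, SE 0.0590, adjusted p = 0.00180, limma). 28S Cm2744 scored 0.453, 0.475, 0.376 and 0.396 in Fib libraries, with means of 0.425 in Fib and 0.673 in LacZ cells (difference -0.248, SE 0.0375, adjusted p = 0.000497, limma). 18S Am549 scored 0.640, 0.621, 0.528 and 0.538 in Fib libraries, with means of 0.582 in Fib and 0.828 in LacZ cells (difference -0.246, SE 0.0273, adjusted p = 0.000165, limma). At these 3 sites every Fib library was below every LacZ library.

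The read ends moved with the scores. Fib libraries had 504 to 696 ends per 10000 covering reads at 18S Am441, against 285 to 417 in LacZ libraries. On the log2 scale of ends per coverage, with 0.5 added to the ends, the difference was 0.71 or 1.64-fold (adjusted p = 0.00549, limma). The increase was 1.88-fold at 18S Am425, 2.13-fold at 18S Gm475, 2.34-fold at 18S Am549 and 1.82-fold at 28S Cm2744, all called by limma with adjusted p from 2.64e-05 to 0.00898. Of all 72 sites 83.3% were called higher in ends. The median log2 difference was 0.91 for the 5 and 1.998 for all 72 sites, the opposite order to that of the scores. The median site had 36.1 to 44.0 ends per 10000 in the 4 LacZ libraries, fewer than any of the 5.

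Taken apart, both kinds of ends increased, and the share of all sites called was not counted for either kind alone. At 18S Gm475 5′ ends rose 2.98-fold and 3′ ends 1.89-fold (adjusted p = 0.000864 and 0.0291, limma). At 18S Am549, where few 3′ ends exist, they increased 1.82-fold (adjusted p = 0.00640, limma) beside 2.39-fold for the 5′ ends (adjusted p = 0.000229, limma). At 18S Am425 the 5′ ends were not called on their own, with a fold of 2.20 (adjusted p = 0.0648, limma); 3′ ends rose 1.83-fold (adjusted p = 0.00375, limma). Of the 10 neighbours 9 were called lower in score by limma, against 80.6% of all 72 sites. The largest of these differences were -0.462 at 18S Am469, -0.461 at 18S Um586, -0.426 at 28S Gm2774 and -0.308 at 18S Cm419 (adjusted p from 2.45e-05 to 0.00543, limma), each beyond the median of the 5. 18S Um[Psi]568, whose guide is listed as unknown, differed by -0.0153 (adjusted p = 0.351, limma).

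Both library-number runs showed the fall in score, with 2 libraries per group in each. In run A the differences were -0.268 at 18S Am425, -0.249 at 18S Am441, -0.402 at 18S Gm475, -0.211 at 18S Am549 and -0.157 at 28S Cm2744. In run B they were -0.335, -0.339, -0.353, -0.281 and -0.340 in the same order. All 10 were called by limma (adjusted p from 5.16e-07 to 0.0264), where 80.6% of the 72 sites were called lower in run A and 83.3% in run B. In read ends, 5 of 5 sites were called higher in run A, against 84.7% of all sites, and 4 of 5 in run B, against 83.3%. The exception was 18S Gm475 in run B, with a log2 difference of 0.68 and an interval from -0.08 to 1.45 (adjusted p = 0.0874, limma). In score, the difference between the runs was itself called at 18S Am549 (-0.0703, adjusted p = 0.00527, limma) and 28S Cm2744 (-0.183, adjusted p = 0.00527, limma), and at 55.6% of all sites. In read ends it was called at 0% of the 72 sites by limma (0 of the 5 and 13 of the 72 had an unadjusted p under 0.05), with log2 differences of 0.13 at 18S Am549 (adjusted p = 0.802) and 0.59 at 28S Cm2744 (adjusted p = 0.241). At 28S Cm2744 the Fib scores averaged 0.386 in run B and 0.464 in run A, while the LacZ means were 0.726 in run B and 0.621 in run A. That LacZ difference of 0.105 was not called (adjusted p = 0.101, limma); its interval ran from 0.0478 to 0.162.

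**Figure D4:**
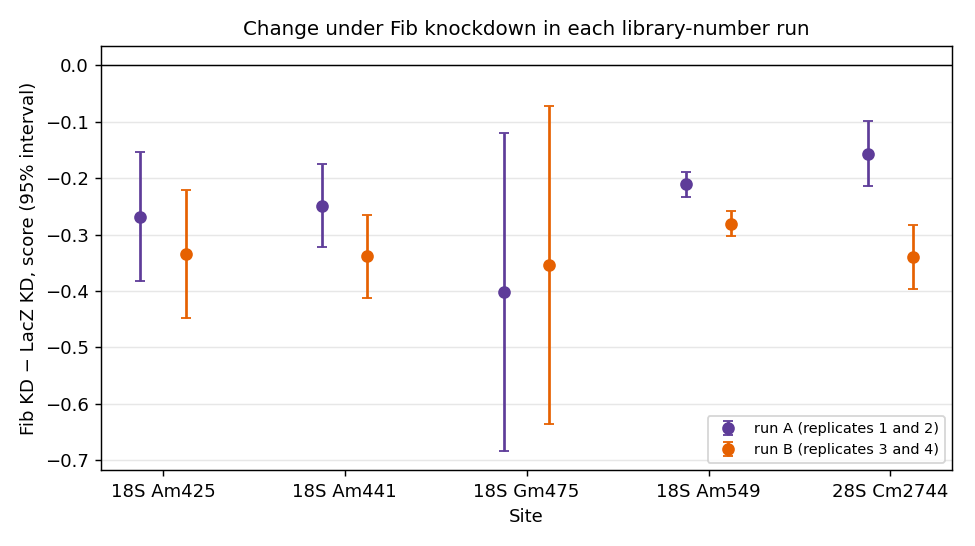
Score difference of Fib less LacZ cells (y axis) at the 5 sites (x axis) in run A (replicates 1 and 2) and run B (replicates 3 and 4), with 95% intervals from limma. All intervals lie below 0; those of 18S Am549 and 28S Cm2744 do not overlap between the runs.

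At 18S Gm475 single libraries stood apart by their 3′ ends. LacZ replicate 3 had 350 3′ ends per 10000 covering reads there, against 102 to 149 in the other 3 LacZ libraries. Its 5′ ends, 70.2, were also the most of the group, against 33.4, 40.4 and 61.7 in replicates 1, 2 and 4. In heads, 18 °C replicate 3 had 112 3′ ends per 10000, against 26.1 to 32.0 in the other 3 libraries of that group, and its 5′ ends of 8.57 lay within their range of 3.49 to 11.6. The 2 libraries share no run. LacZ replicate 3 had its group's lowest score at 33 of 72 sites, and 18 °C replicate 3 at 13 of 72.

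Temperature went with higher protection at part of the sites. The 3 temperatures were fitted together, all in run D. Neither the 29 °C nor the 18 °C libraries entered the choice of the sites. Those at 25 °C did, and they share in the variance of the fit. 28S Cm2744 scored 0.966, 0.978, 0.973 and 0.966 at 18 °C, 0.981, 0.981, 0.982 and 0.977 at 25 °C, and 0.988, 0.986, 0.987 and 0.988 at 29 °C. Every 29 °C library was above every 18 °C library, and the difference was 0.0164 (SE 0.00249, adjusted p = 0.00135, limma). 18S Am549 scored 0.946, 0.963, 0.946 and 0.936 at 18 °C, 0.957, 0.952, 0.964 and 0.953 at 25 °C, and 0.971, 0.962, 0.973 and 0.973 at 29 °C. It was higher at 29 than at 18 °C by 0.0223 (SE 0.00517, adjusted p = 0.0150, limma). Of all 72 sites 19.4% were called higher at 29 °C, and the median difference was 0.0164 for the 5 sites and 0.00262 for all 72.

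18S Gm475 had the largest difference of the 5, 0.0595, without a call (adjusted p = 0.103, limma). It scored 0.951, 0.941, 0.819 and 0.940 at 18 °C, 0.964, 0.956, 0.964 and 0.961 at 25 °C, and 0.977, 0.971, 0.968 and 0.973 at 29 °C. All libraries at 29 °C were above all at 25 °C, and those above all at 18 °C. Without 18 °C replicate 3 the difference was 0.0281 and was called, and that of 18S Am441 as well (adjusted p = 0.000170 and 0.0463, limma); over all alternatives adjusted p ran from 0.000170 to 0.256 at 18S Gm475 and from 0.0463 to 0.410 at 18S Am441.

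Read ends were counted in the same libraries. At 28S Cm2744 they were 30.8 to 49.0 per 10000 covering reads at 18 °C, 20.7 to 26.1 at 25 °C and 14.8 to 18.0 at 29 °C, with no overlap between the 3 temperatures. The fold between 29 and 18 °C was 0.394 (adjusted p = 3.34e-05, limma). At 18S Gm475 the ranges were 35.0 to 121, 26.5 to 33.1 and 17.5 to 23.6, again without overlap, and the fold was 0.401 (adjusted p = 0.00627, limma). At 18S Am549 the fold of 29 over 18 °C was 0.467 (adjusted p = 0.00103, limma). With these 3 of 5 called lower, against 20.8% of all sites, the other two, 18S Am441 and 18S Am425, had folds of 0.836 and 0.934 (adjusted p = 0.327 and 0.776, limma). The median log2 difference was -1.10 for the 5 and -0.136 for all sites. Ends at the median site were also fewer at 29 °C, 15.0 to 19.9 per 10000 between libraries, against 20.6 to 27.8 at 18 °C.

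The 2 kinds of ends were also tested apart, but not against each other. For either kind alone, the share of all sites called was not counted. Between 29 and 18 °C the 5′ ends had folds of 0.352 at 28S Cm2744, 0.261 at 18S Gm475 and 0.462 at 18S Am549 (adjusted p = 7.36e-05, 0.00418 and 0.00381, limma). The 3′ ends had folds of 0.578, 0.438 and 0.557 in the same order and none was called (adjusted p = 0.0650, 0.0763 and 0.120, limma). At 18S Gm475 the 3′ ends were 82.2% to 89.3% of all ends at the 3 temperatures.

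Against temperature as a number, the score rose by 0.00148 per °C at 28S Cm2744 and by 0.00194 per °C at 18S Am549 (adjusted p = 0.000586 and 0.0171, limma), and 15.3% of all sites rose. 18S Am441 did not follow the order of the temperatures. It scored 0.946, 0.934, 0.961 and 0.941 at 18 °C, 0.924, 0.945, 0.934 and 0.922 at 25 °C, and 0.964, 0.958, 0.962 and 0.948 at 29 °C, lowest at 25 °C. It was higher at 29 than at 25 °C by 0.0267 (adjusted p = 0.0455, limma), where 6.94% of sites were called higher. That call was kept in 7 of 17 alternatives, with adjusted p from 0.0118 to 0.131 (limma). Ends were called lower at 29 than at 25 °C at 18S Am441 (fold 0.628, adjusted p = 0.0302, limma) and 28S Cm2744 (fold 0.674, adjusted p = 0.0375, limma), 2 of the 5, against 9.72% of all sites. The 25 °C mean against the mean of 18 and 29 °C differed by -0.0205 (adjusted p = 0.160, limma). Of all 72 sites, 1.39% were called in this last comparison.

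18S Am425 scored 0.910 to 0.947 at 18 °C, 0.907 to 0.936 at 25 °C and 0.921 to 0.946 at 29 °C, ranges that overlapped, and none of its differences was called. Its difference between 29 and 18 °C had a 95% interval from -0.0133 to 0.0249. Between 18 and 25 °C none of the 5 scores was called by limma (1 of the 5 and 11 of the 72 had an unadjusted p under 0.05), where 1.39% of all sites were called lower. 28S Cm2744 came nearest, with -0.00971 (adjusted p = 0.0677, limma), and its ends were 1.71-fold higher at 18 °C (adjusted p = 0.0232, limma), where 1.39% of sites were called higher in ends.

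For paraquat, a herbicide that generates superoxide in cells, none of the 5 sites was called, and 0% of all 72 (limma). Without adjustment 2 of the 5 and 8 of the 72 had a p under 0.05. 18S Am441 scored 0.968, 0.970 and 0.973 with paraquat, against 0.946, 0.962 and 0.954 on sucrose. The groups did not overlap, the difference was 0.0166 with an interval from 0.00563 to 0.0277, and the adjusted p was 0.352 (limma). 18S Gm475 scored 0.955, 0.951 and 0.958 with paraquat, against 0.939, 0.945 and 0.949 on sucrose, also without overlap (difference 0.0102, adjusted p = 0.352, limma). 18S Am425, 18S Am549 and 28S Cm2744 differed by 0.0142, -0.00915 and -0.00246 (adjusted p = 0.846, 0.451 and 0.846, limma). Ends at 18S Am441 were 22.1, 22.7 and 19.0 per 10000 covering reads with paraquat, against 42.9, 28.5 and 35.6 on sucrose, a fold of 0.610 without a call (adjusted p = 0.262, limma), where 1.39% of all sites were called in ends. The sucrose libraries also entered the choice of the sites, as did those at 25 °C and on 1x food.

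On low-nutrient against 1x food no site of the 5 was called; 4.17% of all sites were called lower. Without adjustment 1 of the 5 and 11 of the 72 had a p under 0.05. The one among the 5 was 18S Am441, at 0.956, 0.953, 0.962 and 0.953 on low-nutrient food, against 0.938, 0.949, 0.949 and 0.932 on 1x food. The groups did not overlap and differed by 0.0136, with an interval from 0.00331 to 0.0239 (adjusted p = 0.185, limma). 18S Am425 scored 0.916, 0.923, 0.919 and 0.847 on low-nutrient food, against 0.922, 0.936, 0.926 and 0.947 on 1x food (difference -0.0312, adjusted p = 0.453, limma). Replicate 4 stood apart there with 188 3′ ends per 10000 covering reads, against 92.7 to 101 in the other 3 libraries. That library had its group's lowest score at 51 of 72 sites and the most 3′ ends per covering read at 53. For 18S Gm475, 18S Am549 and 28S Cm2744 the differences were 0.000938, -0.000314 and -0.00428, with intervals inside ±0.05.

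**Figure D5:**
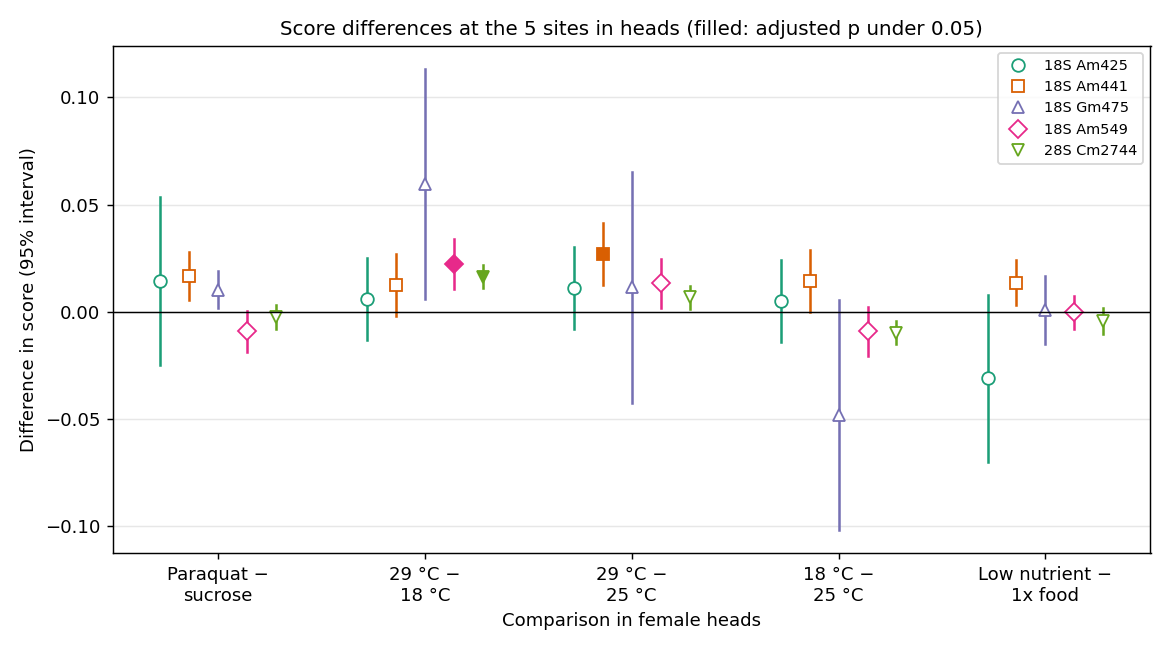
Differences in score (y axis) at the 5 sites in 5 comparisons of female heads (x axis), with 95% intervals from limma; filled symbols had an adjusted p under 0.05. Filled are 18S Am549 and 28S Cm2744 for 29 against 18 °C and 18S Am441 for 29 against 25 °C. The largest difference is 0.0595, at 18S Gm475 for 29 against 18 °C, with an interval from 0.00582 to 0.113.

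Heads on 1x food and heads at 25 °C, both control groups of run D, were also compared. Both groups entered the choice of the sites. Their treatments differ (10 days on 1x food, 8 days in darkness at 25 °C), so the comparison is no measure of how steady the sites are. None of the 5 was called by limma (1 of the 5 and 17 of the 72 had an unadjusted p under 0.05), against 5.56% of all 72 sites called higher on 1x food, and all 5 intervals lay inside ±0.05. 28S Cm2744 came nearest with 0.987, 0.989, 0.988 and 0.982 on 1x food, against 0.981, 0.981, 0.982 and 0.977 at 25 °C (difference 0.00603, adjusted p = 0.140, limma). 18S Am425 was lower in run C, at 0.833 to 0.890 over 6 libraries, than in run D, at 0.847 to 0.947 over 20. Food, temperature, run and the d17 mark in the titles differ between these libraries and cannot be told apart.

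Over the 7 head groups the lowest and highest means were 0.865 (sucrose) and 0.934 (29 °C) at 18S Am425, 0.931 (25 °C) and 0.971 (paraquat) at 18S Am441, and 0.913 (18 °C) and 0.972 (29 °C) at 18S Gm475. At 18S Am549 they were 0.948 (18 °C) and 0.970 (29 °C), and at 28S Cm2744 0.971 (18 °C) and 0.989 (sucrose). The SD within a head group ran from 0.00112 for 28S Cm2744 at 29 °C to 0.0629 for 18S Gm475 at 18 °C. In every head group the mean was above the highest LacZ library at all 5 sites.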

How the data were processed

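RiboMeth-seq was run on total RNA of S2R+ cells and female heads, 34 libraries in all. The submitters' processing notes name Trimmomatic 0.39, Bowtie2 and the build dm6. What reads were aligned to, the filters and the score formulas are not stated in labels or headers. The deposited coverage signal and read ends are whole numbers without normalization, with 0.1 standing for no end, which was set to 0. Of the 3 deposited scores per site, the one named scoreC2 was used, and the other 2 were alternatives. It ran from -0.230 to 1.00, so it is not a bounded fraction, and 2 of 2448 scores were below 0. Counting error near a score of 1 is relatively large because few ends remain, and no interval per library was computed since the formula is not stated.

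The 5 members, the lists and the tests were chosen with earlier results of these data known. Sites named are the 5, those nearest the 0.1 threshold, and all listed sites within 60 bases of a member. Scores of all 72 sites, and log2 of read ends plus 0.5 over coverage, were tested, two-sided, by moderated linear models (limma 3.58.1, R 4.3.3). P-values were adjusted over the 72 sites by Benjamini-Hochberg, with a threshold of 0.05; tables and figures were made in Python 3.11.15 with pandas 2.3.3. The fits were checked on simulated data. Alternatives were the other scores, log2 odds, centring, single libraries left out, the replicate number as a block, the run as a block, and for ends the pseudocount and each kind of end. The values within runs, for scores and ends, were added after seeing the data. Same-numbered Fib and LacZ libraries deviated together (r over 72 sites from 0.165 to 0.574 for the 4 pairs). They also share a run, and libraries of different number were not compared, so pairing by number was not tested. The fit with replicate number as a block changed no call there. In the 48 within-group pairs of libraries the ends differed beyond sampling noise (highest p = 1.63e-07, chi-square test), so each was counted once.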

Additional observations from a re-analysis of the deposited data

Results flagged for a closer look

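Among the 5 sites, 70 sets of values (4 libraries each, scores and read ends) were tested for a library far from the others of its group. In 7 of them a library stood apart, where chance alone gives about 1 in 20. Scores and ends are made from the same reads and some libraries recur, so the 70 sets are not independent. At 18S Am425, low-nutrient replicate 4 scored 0.847 against 0.916 to 0.923 in the other 3 libraries and had 191 ends per 10000 covering reads against 93.7 to 102. The same library had 40.4 ends at 18S Gm475 against 23.2 to 25.98. At 18S Gm475, 18 °C replicate 3 scored 0.819 against 0.940 to 0.951 and had 121 ends against 35.0 to 43.6. At 18S Am549, 1x food replicate 1 scored 0.954 against 0.963 to 0.964, and at 28S Cm2744, 25 °C replicate 4 scored 0.977 against 0.981 to 0.982.

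The change in score under Fib knockdown differed between the library-number runs by a test of the difference, -0.0703 at 18S Am549 and -0.183 at 28S Cm2744 (run B less run A, 2 libraries per group and run), and at 55.6% of all 72 sites. In read ends neither difference was called (adjusted p = 0.802 at 18S Am549 and 0.241 at 28S Cm2744, limma).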

How the results depend on the processing

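Counts of the 5 sites called were within 1.5 times the reported ones in 147 of the alternatives run and moved in 21. The share of all sites called was not counted under the alternatives, so whether a moved count is particular to the 5 is not known. Leaving out single libraries gave 4 to 5 for Fib against LacZ, 5 to 5 for its read ends, 2 to 4 for 29 against 18 °C (4 without 18 °C replicate 3), 3 to 3 for its read ends, 0 to 3 for 29 against 25 °C, 0 to 2 for 18 against 25 °C, 0 to 1 for 25 °C against the mean of the other temperatures, 1 to 3 for the temperature slope, and 0 to 0 for paraquat, food and 1x food against 25 °C. The score scoreA2 gave 0 for 29 against 25 °C and 1 for 18 against 25 °C, centred scores gave 1 for 1x food against 25 °C, and 3′ ends alone gave 0 for 29 against 18 °C. With the replicate number as a block, 29 against 25 °C had 0 of the 5 called. Same-numbered libraries of those groups did not deviate together (r from -0.340 to 0.0246). The block changed no other count by over 1.5 times. The causes were not tested. Of single-site results 22 lost and 15 gained a call, and 23 changed sign, none of them called in the reported setting. Low-nutrient less 1x food at 18S Am549 became 0.00305 (scoreA2), 5.8e-05 (mean2) and 0.00109 (centred scores), and -0.00263 to 0.00137 without single libraries; at 18S Gm475 that range was -0.00348 to 0.00613. 1x food less 25 °C at 18S Gm475 became -0.00121 (scoreA2), and -0.00333 to 0.00526 without single libraries. The slope of 18S Am425 became -0.000117 (centred scores) and -9.2e-05 to 0.00106. The log2 ends of 29 over 18 °C became 0.16 at 18S Am441 (3′ ends alone) and -0.264 to 0.0322 at 18S Am425. Paraquat less sucrose at 18S Am425 ran from -0.0019 to 0.0266, 18 less 25 °C there from -0.00144 to 0.0108, and 25 °C less the mean of 18 and 29 °C at 18S Am549 from -0.00455 to 0.000441. Ends per head library ran from 13 to 98 at 18S Am441, the fewest of the 5 sites in sum, which limits the precision there.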
